A study of Mus musculus with 4 samples.

Results

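RNA levels of 10 genes of the p53 family and the BCL2 family were followed in sorted meiotic prophase cells of the mouse testis. The members were every row of the 4 expression files named *Trp53*, *Trp63*, *Trp73*, *Bax*, *Bak1*, *Bcl2*, *Bcl2l1*, *Mcl1*, *Bbc3* or *Pmaip1*, and all 10 were found among the 24411 rows. The cells were GFP-positive cells from testes at postnatal day 18, isolated through the *Rec8-3FH-GFP* KI allele, which makes GFP together with the meiotic cohesin REC8. The control group was 2 *Zfp541*+/− samples, 1 of them heterozygous and the other homozygous for the KI allele, and the labels do not say which is which. The other group was 2 samples labelled *Zfp541* KO, called the KO-labelled libraries below, both homozygous for the KI allele, so a single copy of that allele occurs among the controls alone. The knockout allele lacks *Zfp541* from its first exon into a late intron, and the exons after it remain. The strain is labelled as a mix of C57BL/6 and CBA, whereas the study names C57BL/6 alone as the background. The comparison asks whether regulators of cell death differed in spermatocytes that lack ZFP541, a zinc-finger protein of spermatocytes.

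The BCL2 family decides whether a cell opens the outer membrane of its mitochondria, releases cytochrome c and activates caspases. BAX and BAK1 are the effectors that form the pore, BCL2, BCL2L1 and MCL1 are the guards that hold them back, and the BH3-only proteins PUMA (from *Bbc3*) and NOXA (from *Pmaip1*) bind the guards and set the effectors free. p53 (from *Trp53*) is a transcription factor activated by DNA damage, and *Bax*, *Bbc3* and *Pmaip1* are among its best-known targets. Its relatives p63 and p73 (from *Trp63* and *Trp73*) share its DNA-binding domain, and p63 is known for the quality control of germ cells. Meiotic cells make and repair many DNA breaks as part of their programme, and spermatocytes that do not repair them are removed by apoptosis.

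The promoters of *Bax*, *Trp53* and *Mcl1* are shown because *Bax* is a p53 target, *Trp53* codes for the factor itself and *Mcl1* was the most abundant guard in the KO-labelled libraries. Each is the 250 bases before a RefSeq transcription start on GRCm38.p6, the assembly named mm10 by UCSC, written 5′ to 3′ on the strand of the gene. *Bax* is at chr7:45466899-45467148 on the reverse strand, *Trp53* at chr11:69580109-69580358 on the forward strand and *Mcl1* at chr3:95658471-95658720 on the forward strand. Capitals mark the decamer consensus of p53 in *Bax* and *Trp53*, and the GC box GGGCGG, on either strand, in *Mcl1*.
Bax: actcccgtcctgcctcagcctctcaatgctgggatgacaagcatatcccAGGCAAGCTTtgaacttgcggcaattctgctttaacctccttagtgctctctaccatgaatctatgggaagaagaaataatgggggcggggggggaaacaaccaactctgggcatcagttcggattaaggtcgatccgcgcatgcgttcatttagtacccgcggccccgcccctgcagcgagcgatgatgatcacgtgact
Trp53: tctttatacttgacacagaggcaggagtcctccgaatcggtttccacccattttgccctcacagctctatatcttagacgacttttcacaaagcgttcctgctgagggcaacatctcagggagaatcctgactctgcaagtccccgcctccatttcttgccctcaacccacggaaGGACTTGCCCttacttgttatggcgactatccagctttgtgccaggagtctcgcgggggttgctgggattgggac
Mcl1: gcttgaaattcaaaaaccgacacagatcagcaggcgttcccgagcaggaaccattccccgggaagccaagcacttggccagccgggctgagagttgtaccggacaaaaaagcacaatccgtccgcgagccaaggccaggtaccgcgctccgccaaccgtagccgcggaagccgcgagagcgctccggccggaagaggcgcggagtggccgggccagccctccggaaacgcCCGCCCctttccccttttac
The decamer consensus, which reads alike on both strands, was found at 1 place in *Bax*, starting 201 bases before the start site (AGGCAAGCTT), and at 1 place in *Trp53*, starting 75 bases before it (GGACTTGCCC). It was in 7.13% of the 32851 windows of this length in the RefSeq table and in none of the other windows of the members searched. The GC box was in 32.7% of the windows. *Bax* has 2 GC boxes in small letters, *Mcl1* has 1 and *Trp53* has 0. A p53 element is usually a pair of such decamers, and the letters alone do not show binding. Windows of 8 of the 10 members were searched. No window of *Trp63* or *Pmaip1* was searched, so whether their promoters hold these motifs was not tested.

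The values are TPM, which divide by the length of a gene and sum to 1 fixed total in every library. Levels can thus be compared between genes, but the files hold no depth, and the counting error of a value is unknown. Differences are on the log2(TPM + 1) scale, on which scarce genes appear to differ less than they do. *Zfp541* itself stood at 112 and 72.2 TPM in the controls and at 136 and 151 TPM in the KO-labelled libraries, so its transcript went against the label, although exons outside the deletion can still give reads. The groups below are those of the labels. Control 2 listed the most genes at 0 TPM, 7646 against 6518 to 6731 in the other 3 libraries. *Rec8* stood at 7.05 and 27.9 TPM in the controls and at 27.7 and 19.4 TPM in the KO-labelled libraries.

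The controls stood apart from each other in cells other than spermatocytes. The 6 Leydig cell markers summed to 2910 and 18.0 TPM in controls 1 and 2 and to 331 and 503.6 TPM in the KO-labelled libraries. The 6 macrophage markers summed to 2055 and 21.7 TPM in the controls and to 1698 and 1260 TPM in the KO-labelled libraries, so control 2 was the 1 library nearly without them. Germ cell stages differed too. The 8 markers of leptotene and zygotene summed to 2381 and 3026 TPM in the controls and to 4777 and 5033 TPM in the KO-labelled libraries, and 7 of the 8 were higher in both of these than in both controls. The 9 measured pachytene markers of 10 listed summed to 6464 and 3104 TPM in the controls and to 2207 and 3072 TPM in the others, and 5 of the 9 were lower in both KO-labelled libraries than in both controls. The 8 round spermatid markers were scarce, and 3 of them averaged 1 TPM or more. They summed to 20.3 and 19.4 TPM in the controls and to 37.5 and 36.0 TPM in the KO-labelled libraries. Over the 4 libraries, spermatogonial markers summed to 324 to 979.7 TPM and Sertoli cell markers to 1206 to 1844. Peritubular myoid markers summed to 12.3 to 24.7 TPM and red blood cell markers to 20.3 to 280.2. No listed marker was at 0 in all 4 libraries. Fewer cells of a type and less RNA per cell cannot be told apart in such samples, and the part of these markers in the results below was not tested unless a value is given.

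Of the 10 members, 8 averaged 1 TPM or more across the libraries and were tested with the other genes, 14512 in all. None of the 8 passed an FDR of 0.05 in limma, and of all genes tested 0% passed in either direction. None of the 8 reached an unadjusted p of 0.05 in limma, where 10.7% of all genes were higher and 3.73% lower. Both KO-labelled libraries lay above both controls for 4 of the 8 (*Trp53*, *Trp63*, *Mcl1* and *Pmaip1*), against 38.6% of all genes tested. *Trp63* was tested only because the KO-labelled libraries carried its mean past the filter. Among the 7 members with a mean of at least 5 TPM the count was 3, where 4807 of 11511 genes lay above both controls. The KO-labelled libraries lay below both controls for 1 of the 8 (*Bcl2l1*), against 12.1% of all genes, and the groups overlapped for *Bax*, *Bak1* and *Bbc3*. Values given without 1 control come from a fit in which the lone control is assumed to vary like the KO-labelled pair. With 2 libraries in each group an exact permutation test of a single gene, two-sided, cannot give a p under 0.333. The median difference over all genes tested was itself 0.28, and each difference below can be read against it. Without control 1 that median was 0.44, and without control 2 it was 0.15.

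**Figure D1:**
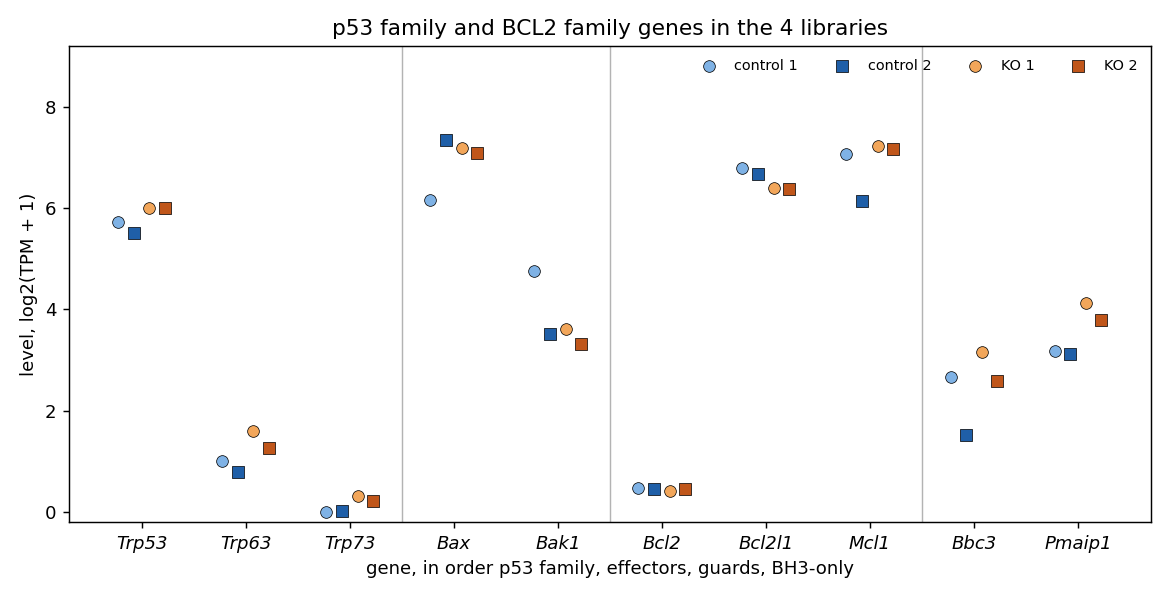
Level of each of the 10 genes as log2(TPM + 1) in the 2 control libraries (blue) and the 2 KO-labelled libraries (orange), 1 point a library. *Bax*, *Bcl2l1*, *Mcl1* and *Trp53* are the most abundant, *Trp73* and *Bcl2* lie near 0, and control 1 stands apart from the other libraries in *Bax* and *Bak1*.

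*Trp53* was well expressed in all 4 libraries. It stood at 52.0 and 44.8 TPM in the controls and at 62.9 and 63.0 TPM in the KO-labelled libraries. The groups did not overlap, and the KO-labelled libraries nearly coincided. The difference was 0.38 on the log2 scale (standard error 0.20, 95% interval -0.16 to 0.91, adjusted p = 0.437 from limma). Without control 1 it was 0.48 and without control 2 it was 0.27. After median-ratio scaling, which sets the median of all genes near 0, the difference of *Trp53* was 0.045 and the groups overlapped. A processed pseudogene of *Trp53* is annotated on chromosome 17 in GENCODE but is not listed in the expression files. The part of reads shared with it in the level of *Trp53* was not tested.

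The other members of the p53 family were scarce. *Trp63* stood at 1.02 and 0.73 TPM in the controls and at 2.03 and 1.40 TPM in the KO-labelled libraries. The groups did not overlap, and the difference was 0.53 (standard error 0.40, 95% interval -0.54 to 1.60, adjusted p = 0.559 from limma). Its control mean was 0.88 TPM, under the filter. *Trp73* was listed at 0 and 0.020 TPM in the controls and at 0.25 and 0.16 TPM in the KO-labelled libraries. Its mean was under the filter, and no fold is given against values at or near 0. *Trp73* shares 280 exonic bases with an antisense gene (*Trp73os*) in the GENCODE annotation, which the expression files do not list. At such levels the strand of a few reads could decide the value of *Trp73*.

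Of the effectors, *Bax* separated control 1 from the other libraries, not the groups. It stood at 70.6 and 160.4 TPM in the controls and at 145 and 135 TPM in the KO-labelled libraries. Control 2 was thus 2.27 times control 1, and the KO-labelled libraries lay between them. The fitted difference was 0.39 (standard error 0.44, 95% interval -0.78 to 1.57, adjusted p = 0.690 from limma). Its sign depended on the control, at 0.98 without control 2 and -0.19 without control 1.

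Control 1 also had the highest sum of Leydig cell markers, 2910 TPM, and of pachytene markers, 6464 TPM, and their part in the level of *Bax* was not tested. *Bax* shares 192 exonic bases with another gene model on the same strand (*Gm45808*), which the expression files do not list.

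*Bak1* showed the opposite order. It stood at 26.1 and 10.4 TPM in the controls and at 11.3 and 9.0 TPM in the KO-labelled libraries, so that control 1 was 2.51 times control 2 and the other 3 libraries lay close together. The difference was -0.67 (standard error 0.53, 95% interval -2.10 to 0.77, adjusted p = 0.582 from limma). It was -1.29 without control 2 and -0.042 without control 1. *Bak1* lies on chromosome 17 from 27019810 to 27029009 on the reverse strand and shares 614 exonic bases with *Ggnbp1*, a gene on the other strand that is known from the testis. *Ggnbp1* was far more abundant, at 637.7 and 244 TPM in the controls and at 34.2 and 50.6 TPM in the KO-labelled libraries. Like *Bak1* it was highest in control 1, but only in *Ggnbp1* were both KO-labelled libraries also far below control 2. How the authors counted strand is not given in the sources used here, so reads of *Ggnbp1* could have been counted for *Bak1*, and their part in its values was not tested.

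The guards differed from one another in level and in direction. *Bcl2*, the founding member of the family, was nearly silent at 0.40 and 0.37 TPM in the controls and at 0.34 and 0.37 TPM in the KO-labelled libraries. Its groups overlapped, and it was under the filter. Tested without a filter, its difference was -0.032 (95% interval -0.44 to 0.38, adjusted p = 0.942 from limma). *Bcl2* shares 558 exonic bases with an antisense gene (*D630008O14Rik*), which the expression files do not list.

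*Bcl2l1*, which codes for BCL-XL, was the 1 tested member lower in both KO-labelled libraries. It stood at 109 and 101 TPM in the controls and at 82.8 and 82.4 TPM in the KO-labelled libraries, and the libraries of each group lay close to each other. The mean of the latter was 0.786 times that of the controls, a difference of -0.34 (standard error 0.18, 95% interval -0.82 to 0.13, adjusted p = 0.426 from limma). It was similar against either control, at -0.29 without control 1 and -0.40 without control 2. With median-ratio scaling it was -0.68 (adjusted p = 0.357 from limma) and with quantile normalization -0.49.

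*Mcl1*, a guard with a short-lived protein, stood at 134 and 69.9 TPM in the controls and at 149.5 and 143 TPM in the KO-labelled libraries. The groups did not overlap, but control 1 was close to the KO-labelled libraries and control 2 lay apart. The difference was 0.59 (standard error 0.36, 95% interval -0.38 to 1.56, adjusted p = 0.488 from limma). It was 1.05 without control 1 and 0.13 without control 2, and after median-ratio scaling the groups overlapped. Control 2, the lowest in *Mcl1*, also had the lowest sum of macrophage markers, 21.7 TPM, and the part of that in the difference was not tested.

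**Figure D2:**
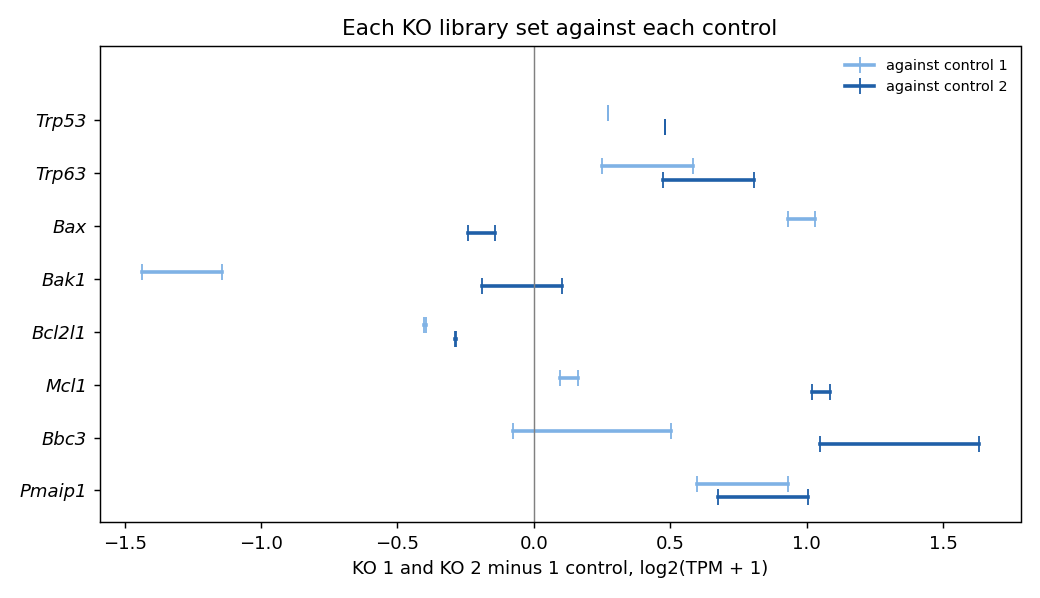
Difference of each library labelled *Zfp541* KO from control 1 (light blue) and from control 2 (dark blue) on the log2(TPM + 1) scale, with the ends of each line at the 2 libraries. *Pmaip1*, *Trp53*, *Trp63*, *Mcl1* and *Bcl2l1* lie on the same side of 0 against either control, whereas *Bax* changes side.

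Averaged over the 4 libraries, the BH3-only members were less abundant than the other BCL2 family members tested. *Pmaip1* stood at 8.12 and 7.66 TPM in the controls and at 16.4 and 12.8 TPM in the KO-labelled libraries. The controls nearly coincided, and the mean of the KO-labelled libraries was 1.85 times theirs. The difference was 0.80 (standard error 0.34, 95% interval -0.10 to 1.71, adjusted p = 0.371 from limma). It was similar against either control, at 0.84 without control 1 and 0.77 without control 2. The groups still did not overlap after median-ratio scaling, at 0.49, or quantile normalization, at 0.56. The summed markers of leptotene and zygotene were likewise higher in both KO-labelled libraries, at 4777 and 5033 TPM against 2381 and 3026 TPM, and their part in *Pmaip1* and *Trp53* was not tested.

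*Bbc3* stood at 5.31 and 1.89 TPM in the controls and at 7.95 and 4.98 TPM in the KO-labelled libraries. The groups overlapped, since control 1 was above the lower of these libraries, and control 2 was lowest. The difference was 0.78 (standard error 0.57, 95% interval -0.75 to 2.30, adjusted p = 0.551 from limma). It was 1.34 without control 1 and 0.21 without control 2. *Bbc3* lies on chromosome 7 from 16308393 to 16318205, 212.1 kb from the end of *Zfp541*, and its alleles are therefore mostly inherited with those of *Zfp541*. The labels give a mixed strain and the study's methods a C57BL/6 background for both alleles, and any part of strain in this value was not tested.

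**Figure D3:**
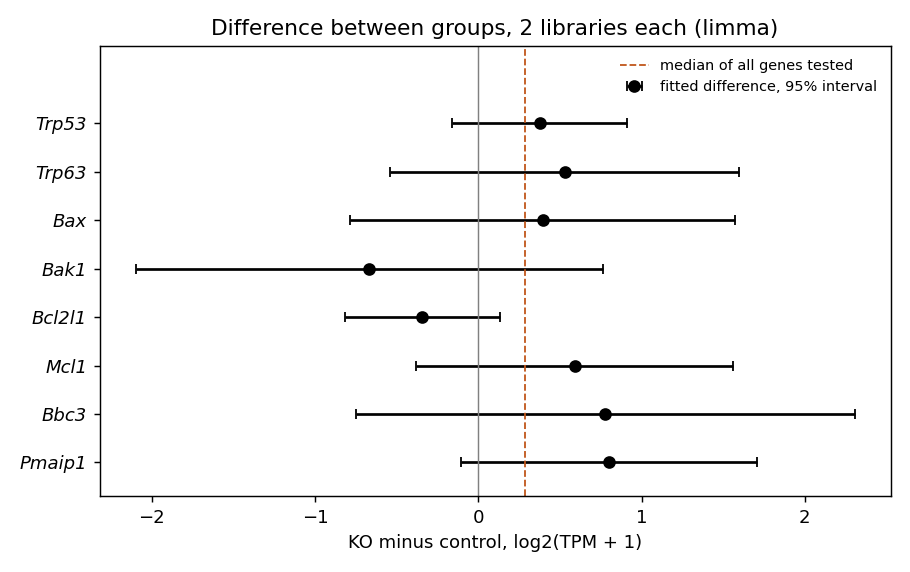
Fitted difference between the KO-labelled libraries and the controls, 2 libraries in each group, with its 95% interval from limma for the 8 members tested. All 8 intervals include 0, and the dashed line marks the median of all genes tested at 0.28.

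In order of their mean level over the 4 libraries, the members ran *Bax* (128 TPM), *Mcl1* (124), *Bcl2l1* (93.9), *Trp53* (55.7), *Bak1* (14.2), *Pmaip1* (11.3), *Bbc3* (5.03), *Trp63* (1.295), *Bcl2* (0.37) and *Trp73* (0.11). *Bax* and *Mcl1* did not differ in this order beyond their spread, since *Mcl1* was above *Bax* in control 1 and in both KO-labelled libraries and below it in control 2. *Bax* and *Bcl2l1* changed places as well, with *Bcl2l1* ahead in control 1. *Pmaip1* was under *Bak1* in the controls and above it in both KO-labelled libraries. By rank among all 24411 rows, *Mcl1* was at percentile 88.5 to 94.2 over the libraries and *Trp53* at percentile 82.2 to 84.2.

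Summed by role over the members, the levels in TPM separated the groups for *Bbc3* and *Pmaip1* alone. *Bbc3* and *Pmaip1* together made 13.4 and 9.55 TPM in the controls, against 24.4 and 17.8 TPM in the KO-labelled libraries. The direction turned when all 8 BH3-only genes of the lists were summed, of which *Bad* is the most abundant, with 172 and 224 TPM in the controls, against 154 and 137 TPM in the KO-labelled libraries. The effectors *Bax* and *Bak1* together made 96.6 and 171 TPM in the controls, against 157 and 144 TPM in the others. The guards *Bcl2*, *Bcl2l1* and *Mcl1* together made 243 and 171 TPM in the controls, against 233 and 226 TPM in the others. The sums of effectors and of guards overlapped between the groups.

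Ratios of 2 members within a library do not change when that library is rescaled. These ratios were picked after the values had been seen and are given with no test. *Mcl1* over *Bcl2l1* was 1.22 and 0.692 in the controls, against 1.81 and 1.73 in the KO-labelled libraries, so the balance between these guards lay further towards *Mcl1* in both. *Bax* over *Bcl2l1* was 0.646 and 1.59 in the controls, against 1.76 and 1.64 in the KO-labelled libraries. The groups did not overlap, yet control 2 was almost at the level of the KO-labelled libraries. The summed guards over *Bbc3* and *Pmaip1* were 18.1 and 17.9 in the controls, against 9.55 and 12.7 in the others. Over all 8 BH3-only genes the ratio turned, at 1.42 and 0.766 in the controls, against 1.51 and 1.64 in the others. In contrast, the effectors over the guards were 0.397 and 0.997 in the controls, against 0.673 and 0.640 in the others, with the latter pair between the controls.

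**Figure D4:**
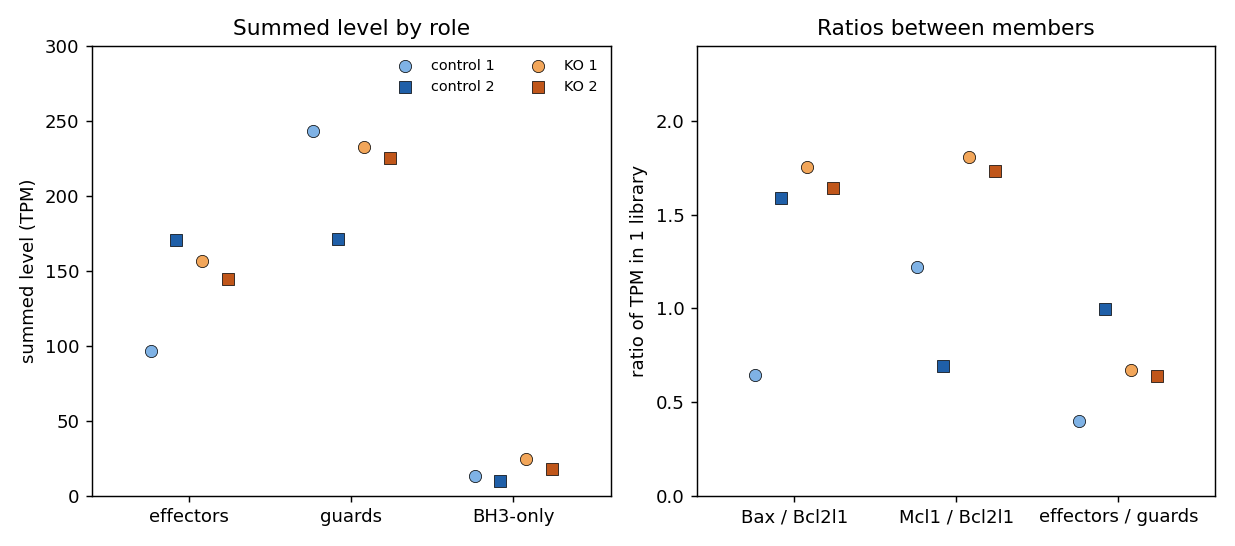
Left, summed TPM of the effectors (*Bax*, *Bak1*), guards (*Bcl2*, *Bcl2l1*, *Mcl1*) and BH3-only genes (*Bbc3*, *Pmaip1*) in each library. Right, the ratio of *Bax* to *Bcl2l1*, of *Mcl1* to *Bcl2l1* and of effectors to guards, where the controls lie far apart in each and the KO-labelled libraries close together.

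The rest of the BCL2 family was examined with 12 further genes, of which 9 were tested and 0 passed the FDR. *Bcl2l10* and *Bcl2a1a* were listed at 0 TPM in all 4 libraries, and *Bcl2a1d* was listed at 0 in 3 of them. Both KO-labelled libraries lay above both controls for 3 of the 9 (33.3%, against 38.6% of all genes tested) and below them for 1 (against 12.1%), and the median difference was 0.21 against 0.28 over all genes. After median-ratio scaling the median was -0.080, against -0.015 over all genes. The gene below both controls was *Bad*, a BH3-only gene whose protein is switched by growth factor signals. It stood at 128 and 156 TPM in the controls and at 73.1 and 74.3 TPM in the KO-labelled libraries (log2 difference -0.93, standard error 0.20, adjusted p = 0.310 from limma), and it was more abundant than *Bbc3* and *Pmaip1* in every library. *Hrk*, another BH3-only gene, had the largest difference upwards in this group, from 0.77 and 0.25 TPM to 2.98 and 1.35 TPM (log2 difference 1.04, adjusted p = 0.399 from limma), but like *Trp63* it passed the filter only through the KO-labelled libraries. *Bcl2l11*, which codes for BIM, stood at 5.72 and 5.79 TPM in the controls and at 9.84 and 7.26 TPM in the others, without overlap. *Bcl2l2*, a guard that spermatogenesis is known to need, stood at 30.8 and 19.7 TPM in the controls and at 36.1 and 32.3 TPM in the others. The groups overlapped for *Bcl2a1b*, *Bik*, *Bid*, *Bmf* and *Bok*, the last an effector related to BAX. *Bik* stood at 4.15 and 21.9 TPM in the controls and at 15.4 and 8.64 TPM in the others.

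The list of p53 regulators had 19 names, and *Cop1* appears in the files under its older symbol *Rfwd2*, which the list also held. Of the 18 genes, all tested, 0 passed the FDR, while 12 had both KO-labelled libraries above both controls (66.7%, against 38.6% of all genes tested) and 0 had both below. The median difference of the list was 0.66, against 0.28 over all genes. After median-ratio scaling 9 of the 18 were above both controls and the median was 0.32, where 22.6% of all genes were above and their median was -0.015. After quantile normalization 9 were above, 1 was below and the median was 0.43, where 27.8% of all genes were above, 19.4% were below and their median was 0.077.

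Among these were the kinases that sense DNA breaks and pass the signal to p53. *Atm*, the kinase that responds to double-strand breaks, stood at 16.5 and 16.7 TPM in the controls and at 42.9 and 38.4 TPM in the KO-labelled libraries (log2 difference 1.24, standard error 0.24, adjusted p = 0.310 from limma). *Atr*, its counterpart for single-stranded DNA and unpaired chromosomes, stood at 262 and 152 TPM in the controls and at 320.2 and 338 TPM in the others. *Chek1*, the target of ATR, stood at 9.2 and 13.2 TPM in the controls and at 26.9 and 23.8 TPM in the others (log2 difference 1.13, adjusted p = 0.318 from limma). *Chek2*, the kinase downstream of ATM, stood at 5.54 and 7.13 TPM in the controls and at 9.68 and 9.96 TPM in the others. The groups did not overlap for any of these 4 genes, and none passed the FDR. Such separation upwards was common, at 38.6% of all genes tested. Sums of leptotene and zygotene markers rose as well, and what they contributed to the levels of these kinases was not tested.

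*Mdm2* and *Mdm4*, which keep p53 low, did not separate the groups. *Mdm2*, the main ligase of p53 and also its target, stood at 155 and 72.7 TPM in the controls and at 147 and 162 TPM in the KO-labelled libraries. *Mdm4*, its partner, stood at 96.8 and 35.0 TPM in the controls and at 91.6 and 94.2 TPM in the others. In both genes control 2 was lowest, as it was in *Mcl1* and *Bbc3*, and control 1 was at the level of the KO-labelled libraries. *Cdkn2a*, whose product ARF restrains MDM2, stood at 28.7 and 80.5 TPM in the controls and at 60.8 and 57.2 TPM in the others, with control 1 lowest. *Ep300*, an acetyltransferase that acts on p53 and on histones, had the largest difference of the list, from 30.8 and 13.04 TPM to 57.8 and 57.7 TPM (log2 difference 1.47, standard error 0.45, adjusted p = 0.320 from limma). *Ppp1r13l*, which codes for the p53 inhibitor iASPP, had the lowest, at -0.13 (adjusted p = 0.903 from limma).

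Of 28 p53 targets other than the members, 27 were tested and 0 passed the FDR. Both KO-labelled libraries were above both controls for 14 (51.9%, against 38.6% of all genes) and below for 0 (against 12.1%), with a median difference of 0.43 against 0.28. After median-ratio scaling 7 were above and 1 below, against 22.6% and 22.8% of all genes, with a median of 0.10. After quantile normalization 10 were above and 0 below, against 27.8% and 19.4% of all genes, with a median of 0.25. *Cdkn1a*, which codes for the cell cycle inhibitor p21, stood at 17.4 and 8.34 TPM in the controls and at 25.0 and 19.9 TPM in the others (log2 difference 0.83, standard error 0.45, adjusted p = 0.446 from limma). *Trp53inp1*, which codes for a stress-induced partner of p53, had the largest difference of the list, from 41.99 and 18.0 TPM to 63.0 and 68.3 TPM (log2 difference 1.22, adjusted p = 0.346 from limma). *Ccng1*, a cyclin gene often read as a sign of p53 activity, did not separate the groups, at 19.5 and 21.8 TPM in the controls and at 25.4 and 19.2 TPM in the others. *Phlda3*, an inhibitor of AKT, was lowest in the list at -0.24 (adjusted p = 0.876 from limma), with 5.87 and 19.0 TPM in the controls, against 10.4 and 7.57 TPM in the others.

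The caspases and the proteins around them were covered by 24 genes, all tested, of which 0 passed the FDR. Both KO-labelled libraries were above both controls for 8 (33.3%, against 38.6% of all genes) and below for 2 (against 12.1%), and the median difference was 0.34, close to that of all genes. After median-ratio scaling 5 were above and 3 below, against 22.6% and 22.8% of all genes, with a median of 0.025. *Apaf1*, which builds the apoptosome once cytochrome c is released, stood at 9.34 and 7.37 TPM in the controls and at 21.1 and 21.1 TPM in the others (log2 difference 1.25, standard error 0.31, adjusted p = 0.310 from limma). *Casp9*, the caspase the apoptosome activates, overlapped between the groups at 20.3 and 13.9 TPM against 23.0 and 19.2 TPM. *Casp8*, the caspase of death receptors, and *Xiap*, an inhibitor of caspases, overlapped between the groups, with control 2 lowest in each at 4.06 and 6.74 TPM. The testis form of cytochrome c, *Cyct*, stood at 573 and 584 TPM in the controls and at 409 and 432 TPM in the KO-labelled libraries (log2 difference -0.46, standard error 0.20, adjusted p = 0.382 from limma). The general form, *Cycs*, stood at 87.4 and 194 TPM in the controls and at 144 and 137 TPM in the others, with the latter pair between the controls.

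**Figure D5:**
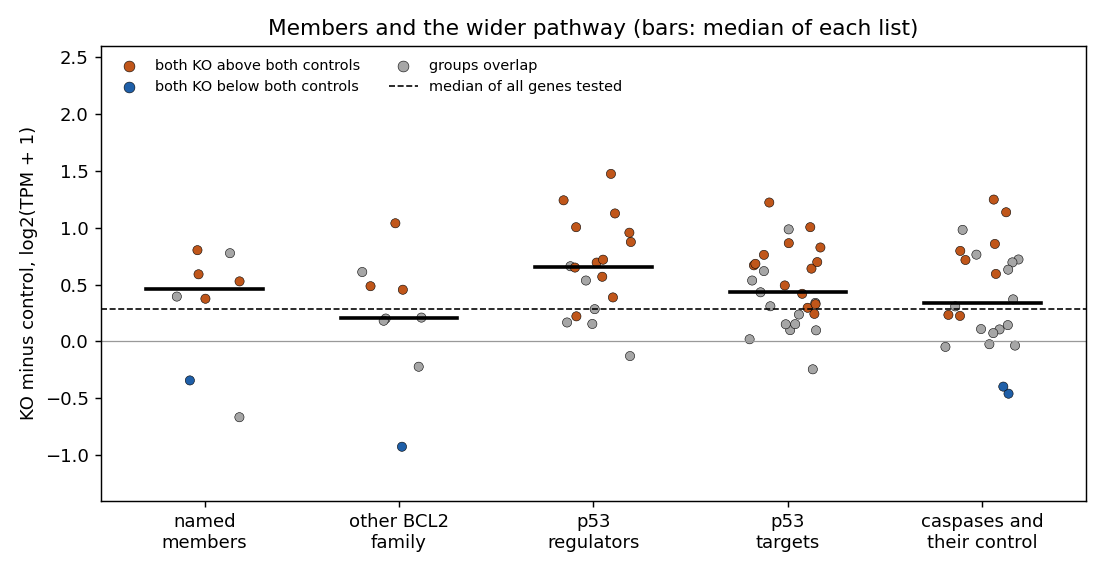
Difference on the log2(TPM + 1) scale for each tested gene of the members and of the 4 wider lists, coloured by whether both KO-labelled libraries lay above both controls (orange), below them (blue) or overlapped with them (grey). Bars mark the median of each list, which was 0.66 for the p53 regulators and 0.46 for the members, against a dashed line at 0.28 for all genes tested.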

How the data were processed

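Members and lists were chosen with earlier results of these data known. RNA was measured in 4 samples, 2 in each group, with groups taken from the labels. The authors trimmed reads with Trim Galore 0.5.0 (cutadapt 1.16), aligned them to UCSC mm10 with STAR 2.6.0a and deposited TPM per gene from RSEM 1.3.1. TPM keeps no depth. The 4 libraries were separate samples, and p-values measure only the spread between them.

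Values were fitted in R 4.3.3 with limma 3.58.1 on log2(TPM + 1) with a mean-variance trend, for genes averaging 1 TPM or more, with Benjamini-Hochberg adjustment over all genes tested. All intervals are 95% intervals of that fit. The fit was tested on simulated data. The study tested for differences with RSEM, which was not repeated here. Alternatives were the pseudocount, filter, scaling, variance model, replicate block, FDR and leaving out each sample.

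The genes named were all members, *Zfp541*, *Rec8*, the highest and lowest difference of each list and a set of well-known pathway genes. *Ggnbp1*, *Sirt1*, *Ppm1d*, *Usp7* and *Rchy1* were added after their values were seen. Gene positions and overlaps came from GENCODE M21 (GRCm38), whereas the authors counted on a UCSC annotation. Values of 1 listed gene are not reported here.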

Additional observations from a re-analysis of the deposited data

How the results depend on the processing

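Fits that left out a control rest on the spread of 1 pair of libraries and assume that the lone control varies like that pair. Over the 4 fits that each left out a library, genes past the FDR numbered 0 to 5610 higher and 0 to 1875 lower, members 0 to 3 higher (*Trp53*, *Mcl1* and *Bbc3* without control 1, *Bax* without control 2) and 0 to 1 lower (*Bak1* without control 2), and pathway genes 0 to 36 higher and 0 to 6 lower. All calls came from the fits without a control, which tested 14512 genes, among them 8 members and 77 pathway genes. Calls were common among all genes in those fits, so those of the members named are no result about these members. *Bax* was between -0.19 (without control 1) and 0.98 (without control 2), and *Rec8* between -0.25 and 1.59. The deviations of same-numbered samples had a correlation of -0.16 over all genes. With 2 libraries in each group this sets 1 contrast against 1 other, so it cannot decide whether the numbers pair the samples. A block with crossed numbers, chosen after seeing the data, gave 7 genes higher and 80 lower, with 0 members. With the replicate block as labelled, 0 genes and 0 members passed. An FDR of 0.1 gave 0 as well.

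Median-ratio scaling moved the median of all genes from 0.28 to -0.015, the members above both controls from 4 to 2 (*Pmaip1* and *Trp63*, which passed the filter only through the KO-labelled libraries) and those below from 1 to 2 (*Bcl2l1* and *Bak1*), where 22.6% of all genes were above and 22.8% below. Quantile normalization gave 4 above and 2 below, where 27.8% of all genes were above and 19.4% below. Of 103 values of the 8 tested members under the alternatives, 1 reversed direction, that of *Bax* without control 1. The filter, variance model and block settings cannot change a difference, so its direction was fixed in advance there. TPM keeps no depth, so the counting error of low genes such as *Trp73* and *Bcl2* is unknown.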
